A study of Mus musculus with 6 samples.

Results

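Matrix metalloproteinases (MMPs) and their tissue inhibitors (TIMPs) were followed through 7 protease genes (Mmp2, Mmp3, Mmp8, Mmp9, Mmp12, Mmp13 and Mmp14) and 3 inhibitor genes (Timp1, Timp2 and Timp3). The members were taken by gene symbol, through the RefSeq accession of each non-control probe, a rule with no threshold on a measured value, although earlier results of these data were known when the list was drawn up. All 10 genes were on the array, out of 16358 genes with a symbol, and they were covered by 14 of 41174 probes. All 10 passed the filter on dim probes, which kept probes well above background on 2 or more of the 6 arrays and left 12970 genes. Mmp12 did so only with the tg/tg arrays. Lung total RNA of C57BL/6 mice had been hybridised to 6 single-colour (Cy3) Agilent arrays, 2 for each of 3 genotypes. WT mice carried no transgene, tg/wt mice carried the hCD2-T-bet transgene in the form labelled tg/wt, and tg/tg mice in the form labelled tg/tg. T-bet, the product of Tbx21, directs the T helper 1 programme, and the series placed its overexpression in T cells and linked it to pulmonary alveolar proteinosis, a filling of the air spaces with surfactant. The human CD2 control elements that hCD2 stands for are known to drive expression in T cells. The age and sex of the mice were not given in the sources used here, and the labels did not say whether the 2 arrays of a group stand for different mice. All p-values therefore rest on the spread between arrays of a group, which may be technical.

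MMPs are zinc-dependent proteases that are made as inactive precursors and, once activated, cut collagens, elastin, laminins, fibronectin and many cell surface proteins and chemokines. TIMPs bind the active site of MMPs and block it, and TIMP2 also takes part in the activation of pro-MMP2 at the cell surface by MMP14. In the lung MMP12 is known as the macrophage elastase, MMP8 and MMP9 are stored in neutrophil granules, and MMP2, MMP14, TIMP2 and TIMP3 are made largely by fibroblasts and other stromal cells. Arrays measure transcripts and say nothing of activation, secretion or inhibition of the enzymes.

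Levels are given as log2 of the processed signal minus the array's 75th percentile, so a level of 0 lies at the 75th percentile of that array. These percentiles ranged from 794 to 1204 intensity units. Between 62.0% and 66.8% of probes were well above background, and replicate arrays correlated at 0.996 to 0.997 across genes. The level of Tbx21 was -0.70 and -0.71 on the WT arrays, 1.30 and 1.34 on the tg/wt arrays, and 3.25 and 3.26 on those of tg/tg, so its order followed the labels. All 11 listed markers of alveolar and airway epithelium, such as the surfactant gene Sftpb, were well above background in every group. Slide 1 carried the arrays of WT and tg/tg, and slide 2 those of tg/wt, so in each comparison that uses tg/wt the slide and the genotype cannot be told apart.

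In tg/tg lung 6 of the 7 protease genes and Timp1 were higher than in WT, and Timp2 and Timp3 were lower. Mmp12 passed the filter only with the tg/tg arrays, so its call adds nothing to this count. Mmp12 (59.1-fold, with 1 of 2 WT arrays well above background), Timp1 (20.1-fold), Mmp13 (13.9-fold) and Mmp14 (6.12-fold) had the largest fitted rises. Mmp8 (2.27-fold), Mmp2 (1.59-fold) and Mmp3 (1.53-fold) rose by less, Timp2 fell 1.84-fold and Timp3 fell 1.57-fold. Mmp9 did not pass the test. Calls came from limma with Benjamini-Hochberg adjustment over all 12970 genes at a threshold of 0.05. The same comparison called 33.8% of all genes higher and 40.8% lower, 74.7% in all, so a call alone was common. The median log2 difference of the 10 genes was 0.93, against -0.05 over all genes tested. Mmp12 is part of that median, so the median only describes the 10 genes.

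**Figure D1:**
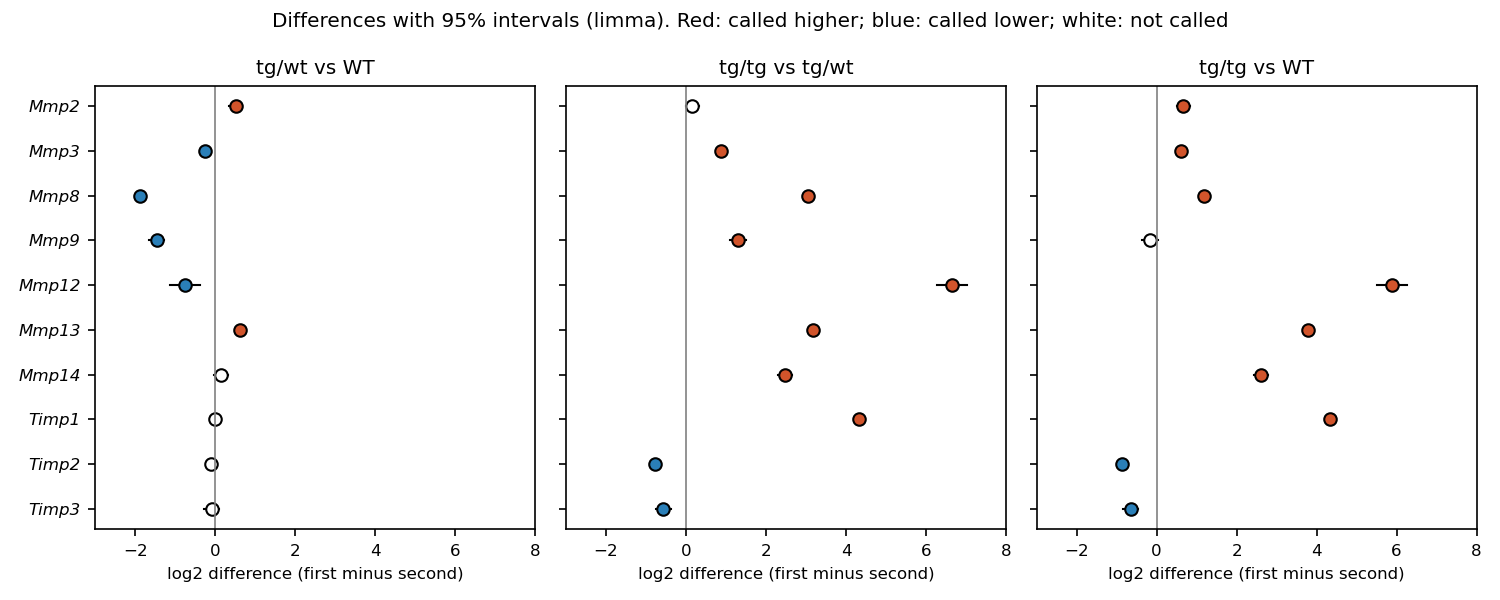
Log2 differences of the 10 genes in the 3 comparisons (x axis, first group minus second) with 95% intervals from limma; red points were called higher, blue points lower and white points were not called. The points of Mmp12 are fitted from tg/wt and WT signals of which WT 1 alone was well above background, so their size is not settled, and no TIMP gene is called in tg/wt against WT.

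Against WT, tg/wt lung had a different set of changes: Mmp8 fell 3.66-fold and Mmp9 2.76-fold, Mmp3 fell 1.20-fold, while Mmp13 (1.55-fold) and Mmp2 (1.43-fold) rose. Mmp12 was called lower too, but no fold is given, since WT 1 alone of these 4 arrays was well above background. Mmp14 and the 3 TIMP genes did not pass the test. These 2 rises and 4 falls among the 10 genes stand beside 13.4% of all genes called higher and 14.5% lower, 27.9% in all. From the series values the split of all calls was 860 higher and 586 lower, against 1733 and 1887. The background share is itself unsteady: 3620 genes were called in all, but 1398 without WT 1, 1473 without WT 2, 1807 without tg/wt 1 and 1464 without tg/wt 2. The calls of Mmp8, Mmp9, Mmp2 and Mmp13 held with each array left out in turn. Mmp3 lost its call without WT 1 (adjusted p = 0.0656), WT 2 (0.0788) or tg/wt 1 (0.0562). Mmp12 lost its call without tg/wt 1 (0.0929) or tg/wt 2 (0.0857), so 2 of the 4 falls remained without tg/wt 1.

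The elastase gene Mmp12 had a level of -5.27 and -5.70 on the WT arrays, -6.30 and -6.20 on the tg/wt arrays, and 0.40 and 0.40 on those of tg/tg. It was well above background on WT 1 and on both tg/tg arrays, but not on WT 2 or on either tg/wt array. The groups did not overlap, and the tg/tg arrays stood far above the rest. The log2 difference between tg/tg and WT was 5.89 (SE 0.145, adjusted p = 5.16e-06). Against tg/wt the rise was at least 78.2-fold. "At least" sets the brighter group against the lowest signal that counted as well above background, or the probe's own signal where that was higher. Where the probe's own signal was higher on both arrays, the value is the fitted difference and no lower limit. Such folds are called fitted below. The size depends on how background is handled: a normexp correction of the raw signal, which adds an offset of 50 intensity units, gave 3.88 for tg/tg against WT, 4.09 against tg/wt, and -0.20 (adjusted p = 0.332) for tg/wt against WT.

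Mmp13 and Mmp8 encode collagenases, enzymes that cut fibrillar collagen. Mmp13 was at -4.85 and -4.79 on the WT arrays, -4.16 and -4.22 on the tg/wt arrays and -1.05 and -0.999 on those of tg/tg, well above background on all 6 arrays and with no overlap between groups. The rise in tg/tg over WT was 3.79 on the log2 scale (SE 0.0451, adjusted p = 9.16e-07), and that in tg/wt over WT was 0.63 (adjusted p = 0.00173). With the normexp correction these became 2.39 and 0.19, and the second was no longer called (adjusted p = 0.0600). Mmp8 was at -1.36 and -1.40 in WT, dropped to -3.30 and -3.20 in tg/wt, and stood at -0.19 on both tg/tg arrays. Its order was therefore tg/wt, WT, tg/tg, with each neighbouring pair separated: tg/wt lay 1.87 below WT (adjusted p = 0.000231) and tg/tg 1.18 above it (adjusted p = 2.20e-05). With the normexp correction the differences of Mmp8 from WT were smaller, -1.45 in tg/wt and 1.02 in tg/tg, and both were still called.

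Mmp2 and Mmp9 encode the gelatinases, which cut denatured collagen and collagen IV of basement membranes, and their patterns differed. Mmp2 was at 1.23 and 1.26 on the WT arrays, 1.70 and 1.83 on the tg/wt arrays, and 1.97 and 1.87 on those of tg/tg. Both transgenic groups lay above WT, by 0.51 (SE 0.0623, adjusted p = 0.00709) and 0.67 (adjusted p = 0.000443). The difference between tg/tg and tg/wt was 0.16 (95% interval -0.01 to 0.32, adjusted p = 0.0717), so it was not called with all arrays, although the arrays did not overlap and it was called without tg/wt 2 (adjusted p = 0.0391). Mmp9 was at -1.60 and -1.68 on the WT arrays, -3.04 and -3.16 on the tg/wt arrays, and -1.73 and -1.88 on those of tg/tg. The tg/wt arrays stood well below the others. For tg/wt against WT the difference was -1.47 (SE 0.0731, adjusted p = 0.000755), and for tg/tg against WT it was -0.17 (95% interval -0.36 to 0.02, adjusted p = 0.0930).

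Mmp3, which encodes stromelysin-1, a protease of proteoglycans, laminin and fibronectin that can also activate other MMP precursors, was at 2.08 and 2.11 on the WT arrays, 1.80 and 1.87 on the tg/wt arrays, and 2.70 and 2.71 on those of tg/tg. The changes were small but did not overlap: 0.61 higher in tg/tg than in WT (SE 0.0405, adjusted p = 0.000128) and 0.26 lower in tg/wt than in WT (-0.26, adjusted p = 0.0140). Mmp14, which encodes the membrane-type enzyme MT1-MMP, was at 2.54 and 2.60 on the WT arrays, 2.79 and 2.63 on the tg/wt arrays, and 5.15 and 5.21 on those of tg/tg. The tg/tg arrays lay far above the rest, by 2.61 over WT (SE 0.0664, adjusted p = 5.59e-06) and 2.47 over tg/wt (adjusted p = 7.80e-06). Both tg/wt arrays lay just above both WT arrays, and for tg/wt against WT the difference was 0.14 (95% interval -0.03 to 0.31, adjusted p = 0.178).

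**Figure D2:**
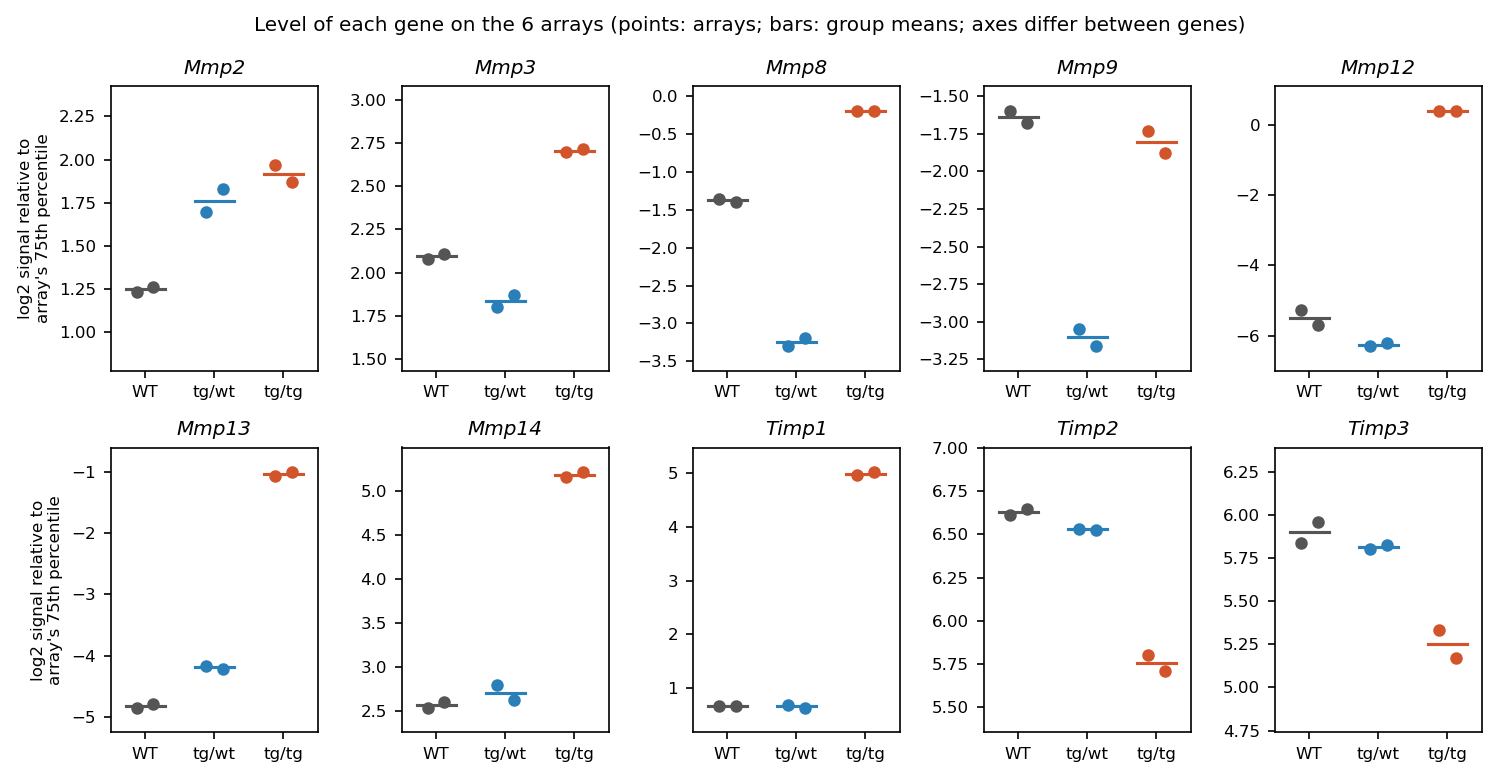
Level of each gene on every array (y axis, log2 signal relative to the array's 75th percentile; its range differs between genes); points are arrays and bars are the means of the 2 arrays of a genotype. Mmp8 and Mmp9 are lowest in tg/wt, Timp1 and Mmp14 are far higher in tg/tg than in the other groups, and Timp2 and Timp3 are lowest in tg/tg.

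The inhibitor genes went in opposite directions in tg/tg. Timp1, an inhibitor that many cell types make on stimulation, was at 0.66 and 0.67 on the WT arrays, 0.69 and 0.64 on the tg/wt arrays, and 4.96 and 5.02 on those of tg/tg. The WT and tg/wt arrays overlapped, with a difference of -0.00 (95% interval -0.11 to 0.10, adjusted p = 0.972), and the tg/tg arrays lay 4.33 above WT (SE 0.0398, adjusted p = 6.38e-07). Timp2 was at 6.61 and 6.65 on the WT arrays, 6.53 and 6.53 on the tg/wt arrays, and 5.80 and 5.71 on those of tg/tg, a difference between tg/tg and WT of -0.88 (SE 0.0442, adjusted p = 4.88e-05). Timp3, whose product is bound to the matrix and also blocks ADAM proteases, was at 5.84 and 5.96 on the WT arrays, 5.80 and 5.82 on the tg/wt arrays, and 5.33 and 5.17 on those of tg/tg, a difference of -0.65 (SE 0.0727, adjusted p = 0.000896). For both genes the tg/tg arrays were lower than all 4 others. In tg/wt against WT the differences were -0.10 for Timp2 (95% interval -0.22 to 0.01, adjusted p = 0.150) and -0.09 for Timp3 (-0.28 to 0.10, adjusted p = 0.420).

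Set against tg/wt, the tg/tg arrays had 7 of the 10 genes higher and 2 lower, where 34.0% of all genes were called higher and 40.2% lower, 74.2% in all. Here too Mmp12 had entered only with the tg/tg arrays. Because the groups are ordered by Tbx21, the step from tg/wt to tg/tg was tested against the step from WT to tg/wt, each with its sign. A fall followed by a rise therefore counts as a higher second step, whatever the sizes. This contrast called 60.0% of all genes, 27.9% with a higher and 32.1% with a lower second step. Among the 10 genes 7 had a higher and 3 a lower second step. Both steps use the tg/wt arrays. Timp1 had a first step of -0.00 and a second of 4.33, a difference between steps of 4.33 (95% interval 4.15 to 4.51, adjusted p = 1.63e-05). Mmp14 had steps of 0.14 and 2.47, and Mmp13 steps of 0.63 and 3.16, with differences of 2.33 (adjusted p = 0.000137) and 2.54 (adjusted p = 4.24e-05). Mmp8 had steps of -1.87 and 3.05, with a difference of 4.93 (adjusted p = 1.63e-05). Mmp12 counts among the 7, but the size of its steps was not measured, since neither tg/wt array was well above background. Mmp9, with steps of -1.47 and 1.30, and Mmp3, with steps of -0.26 and 0.87, also had the higher second step, by 2.77 and 1.13. For Mmp9 the second step was higher in sign but not larger in size. Timp2 fell mainly in the second step (-0.10, then -0.77, adjusted p = 0.00167), and so did Timp3 (-0.09, then -0.56, adjusted p = 0.0263). Mmp2 stood alone among the 10 in rising mainly in the first step, with 0.51 and then 0.16, a difference of -0.36 (adjusted p = 0.0403). That of Mmp2 was lost without WT 1 (adjusted p = 0.0993), WT 2 (0.0815), tg/wt 2 (0.186) or tg/tg 2 (0.0832), and that of Timp3 without WT 1 (0.0610), tg/wt 1 (0.0966) or tg/wt 2 (0.121).

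Markers of neutrophils moved in the direction of Mmp8 in both transgenic groups, and in that of Mmp9 in tg/wt only. Of the 9 other neutrophil markers tested, which include the calgranulin genes S100a8 and S100a9 and the receptor gene Cxcr2, all 9 were lower in tg/wt than in WT, with log2 differences from -2.03 to -0.50 and a median of -1.91. All 9 were higher in tg/tg than in WT, from 0.17 to 3.62, with a median of 0.96. Over all genes, 14.5% were called lower in tg/wt and 33.8% higher in tg/tg. Ngp passed the filter only with the tg/tg arrays. The summed level of the 10 markers on the array, in units of the 75th percentile, was 55.8 to 57.1 on the WT arrays, 15.6 to 16.0 in tg/wt and 67.8 to 70.0 in tg/tg. Elane was not well above background in WT, nor were Elane, Camp and Ngp in tg/wt. Mmp8 changed by -1.87 and 1.18, inside the range of these markers in both comparisons, and Mmp9 changed by -1.47 and -0.17, inside it in tg/wt and below it in tg/tg. In whole lung RNA fewer cells of a type and less RNA per cell cannot be told apart, and the part of neutrophils in the values of Mmp8 and Mmp9 was not tested.

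**Figure D3:**
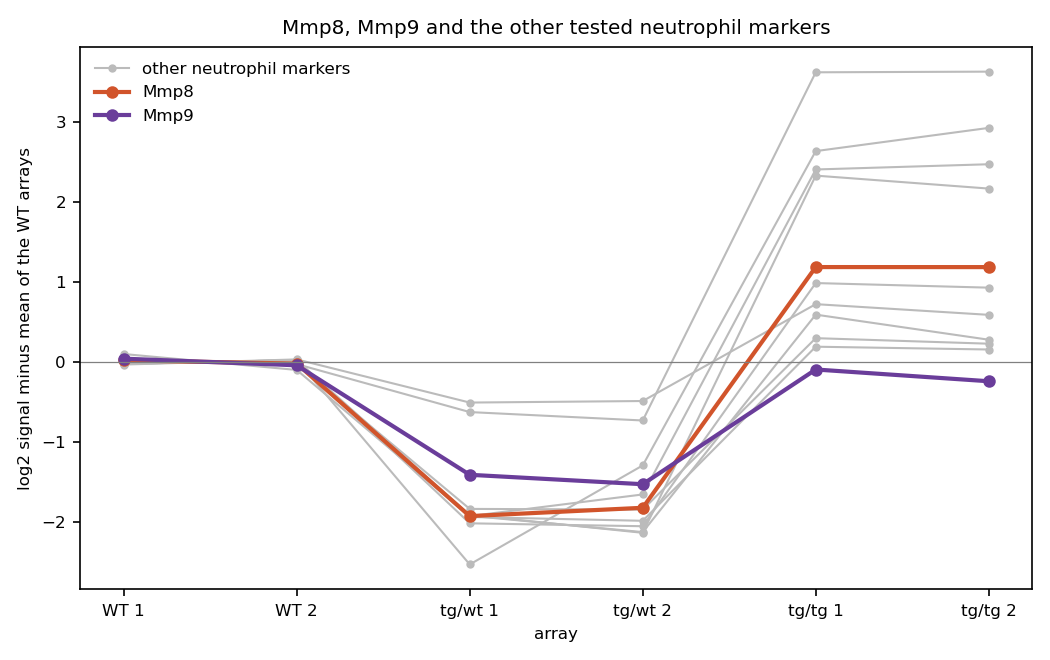
Log2 signal minus the mean of the WT arrays (y axis) on the 6 arrays (x axis) for Mmp8, Mmp9 and the other 9 neutrophil markers tested, in grey. All lines are below 0 on the tg/wt arrays, and on the tg/tg arrays Mmp8 lies among the markers while Mmp9 lies below them, just under the WT level.

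Markers of other cells changed too, and their lists did not all move alike. Counts of called markers stand beside 33.8% of all genes called higher and 40.8% lower in tg/tg, 74.7% in all. In tg/wt these shares were 13.4% higher and 14.5% lower. The 10 markers of monocytes and interstitial macrophages measured, among them C1qb and Ms4a7, had a summed level of 100.1 to 104 in WT, 114 to 118 in tg/wt and 502 to 527 in tg/tg; all 10 were called higher in tg/tg and 8 in tg/wt. Mmp12, Mmp13, Mmp14 and Timp1 were likewise highest in tg/tg, and so were the T cell markers given below. Of 11 alveolar macrophage markers 8 were lower in tg/tg and 3 higher, and Fabp1 was not well above background in tg/tg. In tg/wt 6 of them were called higher and 2 lower, with a median log2 difference of 0.20. Their sums were 119.7 to 121 in WT, 109 to 112 in tg/wt and 102 to 103 in tg/tg. Without Chil3, the brightest of these markers, the sums were 32.1 to 32.8 in WT, 31.0 to 31.4 in tg/wt and 45.4 to 45.7 in tg/tg. The 11 fibroblast markers summed to 524 to 532 in WT, 543 to 579 in tg/wt and 237 in both tg/tg arrays, where 6 were lower and 4 higher. That fall in the sum was carried by Inmt: without it the sums were 182 to 185 in WT, 216 to 222 in tg/wt and 221 to 222 in tg/tg. Sums without the brightest gene of a list were chosen after seeing the data, and for the other lists they kept the direction of the full sums between WT and tg/tg. All 7 smooth muscle and pericyte markers (137 in WT, 144 in tg/wt, 59.5 to 59.9 in tg/tg) and all 8 endothelial markers (148 to 150.1, 136 to 138, and 62.8 to 63.7) were lower in tg/tg, as were Timp2 and Timp3. Epithelial markers summed to 1271 to 1300 in WT, 1114 to 1275 in tg/wt and 933 to 1008 in tg/tg. The 7 T cell markers summed to 3.33 to 3.51 in WT, 7.67 to 7.72 in tg/wt and 42.5 to 43.2 in tg/tg. All 7 were called higher in tg/tg and 6 in tg/wt. The part of any of these cell types in the MMP and TIMP values was not tested.

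Mmp3, Mmp8, Mmp12 and Mmp13 share a position that their choice did not use. In the RefSeq annotation of GRCm38.p6 they lie within a run of 10 MMP genes on chromosome 9, with no other protein-coding gene between them, in the order Mmp13, Mmp12, Mmp1b, Mmp3, Mmp1a, Mmp10, Mmp8, Mmp27, Mmp20 and Mmp7. The other members lie apart, with Mmp9 on chromosome 2, Mmp2 on 8, Timp3 on 10, Timp2 on 11, Mmp14 on 14 and Timp1 on X. Of the 10 neighbours 5 were tested, and these were called higher in tg/tg than in WT, where 33.8% of all genes were. Mmp10 passed the filter only through tg/tg, so its call there was bound to follow. Mmp12 also needed the tg/tg arrays to pass, so neither call adds to this count. Mmp10, which encodes stromelysin-2 and is the fifth, went from -7.16 and -7.77 in WT and -7.04 and -7.06 in tg/wt to -1.30 and -1.34 in tg/tg, a rise over WT of at least 39.7-fold (adjusted p = 1.20e-05). It was well above background in tg/tg alone. The rises of the 4 members in the run differed widely, from 0.61 for Mmp3 to 5.89 for Mmp12, and the adjacent genes Mmp13 and Mmp12 were called in opposite directions in tg/wt, which the normexp correction ended for both (adjusted p = 0.0600 and 0.332). Probes for Mmp20 and Mmp7 were not well above background on any array, a probe for Mmp1a was so on tg/tg 1 alone, and no probe was matched to Mmp1b or Mmp27.

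**Figure D4:**
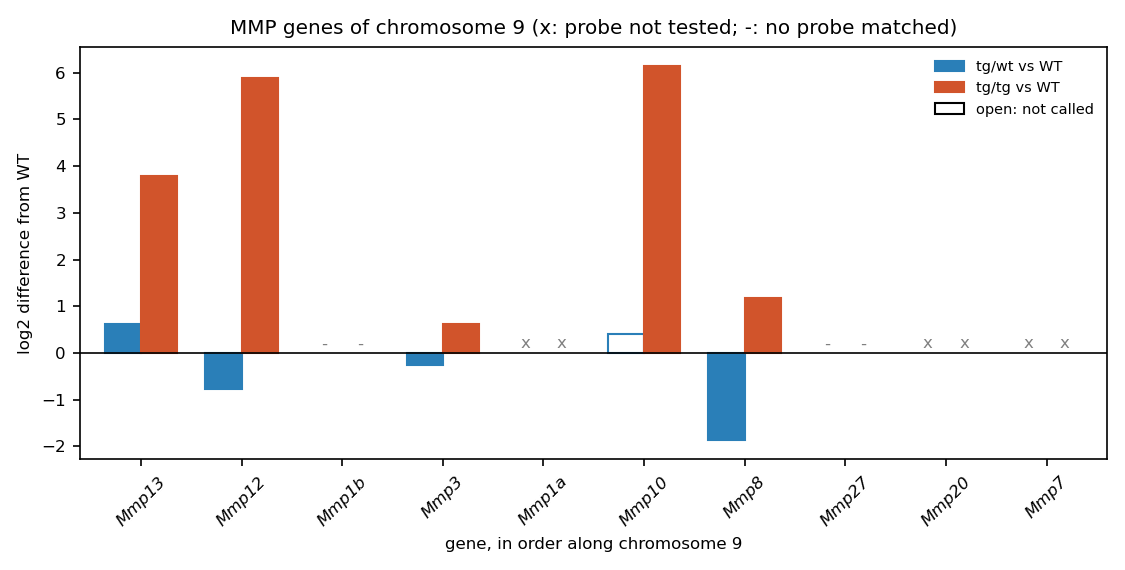
Log2 difference from WT (y axis) of the MMP genes of chromosome 9 in their order along it (x axis, not to scale), with blue bars for tg/wt and red bars for tg/tg; open bars were not called. All 5 tested genes are called higher in tg/tg, and Mmp12, Mmp3 and Mmp8 are below 0 in tg/wt. Mmp10 and Mmp12 passed the filter only with the tg/tg arrays. The values of Mmp12 in tg/wt and both values of Mmp10 are fitted from signals not well above background in tg/wt or WT.

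The letters just before the starts of these genes are shown because Mmp13, Mmp12, Mmp3 and Mmp10 carry a match to the AP-1 motif TGANTCA there, a sequence bound by Fos and Jun proteins and known from MMP promoters, while Mmp8 does not. Each line gives the 80 bases before a RefSeq start on the plus strand of GRCm38.p6, with the match in capitals.
Mmp13, chr9:7272434-7272513: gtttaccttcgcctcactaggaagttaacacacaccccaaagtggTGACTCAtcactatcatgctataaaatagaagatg
Mmp12, chr9:7347294-7347373: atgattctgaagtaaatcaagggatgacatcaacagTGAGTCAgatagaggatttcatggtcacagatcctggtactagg
Mmp3, chr9:7445742-7445821: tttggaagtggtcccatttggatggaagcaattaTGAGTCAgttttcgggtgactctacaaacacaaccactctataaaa
Mmp10, chr9:7502262-7502341: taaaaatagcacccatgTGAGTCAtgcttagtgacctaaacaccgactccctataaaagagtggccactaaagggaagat
Mmp8, chr9:7558349-7558428: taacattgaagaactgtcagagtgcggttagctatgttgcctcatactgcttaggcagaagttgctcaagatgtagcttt
The match begins 35 bases before the start in Mmp13, 44 in Mmp12, 46 in Mmp3 and 63 in Mmp10. Mmp12 has a further annotated start, at which these 80 bases hold no match. RefSeq windows were matched for 8 of the 10 members, 9 windows in all. Searched on both strands over the 300 bases from 250 before to 50 after the start, TGANTCA was found in 3 of the 9 windows, those of Mmp13, Mmp12 and Mmp3, and in 7.81% of all 32851 windows; in the 80 bases before the start it was in the same 3 and in 2.11% of all. The interferon-gamma activated (GAS) motif TTCNNNGAA was in none of the 9 windows and in 8.30% of all. The T-box motif AGGTGTGA was in none of the 9 and in 1.28% of all, and an interferon response element (ISRE-like) motif was in that of Mmp13 alone and in 3.44% of all. The TATA motif TATAAA was in 4 of the 9, those of Mmp13, Mmp12, Mmp3 and Mmp8, and in 13.6% of all. It began 16 bases before the start in Mmp13 and 7 in Mmp3, but 4 after the start in Mmp12. All distances given here rest on the annotated starts. No motif overlaps another among these matches. A match describes letters in a window, and the matched genes rose by sizes as different as 0.61 and 5.89.

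Several members were measured by more than 1 probe. The 3 probes of Timp1 rose in tg/tg over WT by 4.33, 4.60 and 4.62, and differed between tg/wt and WT by at most 0.04. The 2 probes of Mmp14 rose by 2.61 and 2.78 in tg/tg. In tg/wt the brighter Mmp14 probe differed from WT by 0.14 (adjusted p = 0.195 over all probes) and the dimmer by 0.34 (adjusted p = 0.0317 over all probes), and the mean of both was called (0.24, adjusted p = 0.0247), so whether Mmp14 was higher in tg/wt rests on the probe. For Mmp9 a further probe was printed in 10 spots per array, of which 8 or 9 carried no outlier mark. Its spots had medians of -2.36 and -2.40 on the WT arrays, -3.73 and -3.71 on the tg/wt arrays, and -2.27 and -2.30 on those of tg/tg, with an SD between spots of 0.044 to 0.098. The highest tg/wt spot, at -3.53, lay below the lowest spot of any other group, at -2.50. Both Mmp9 probes were lower in tg/wt, by -1.47 and -1.35, and in tg/tg against WT they differed in sign (-0.17 and 0.09) without a call for either.

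**Figure D5:**
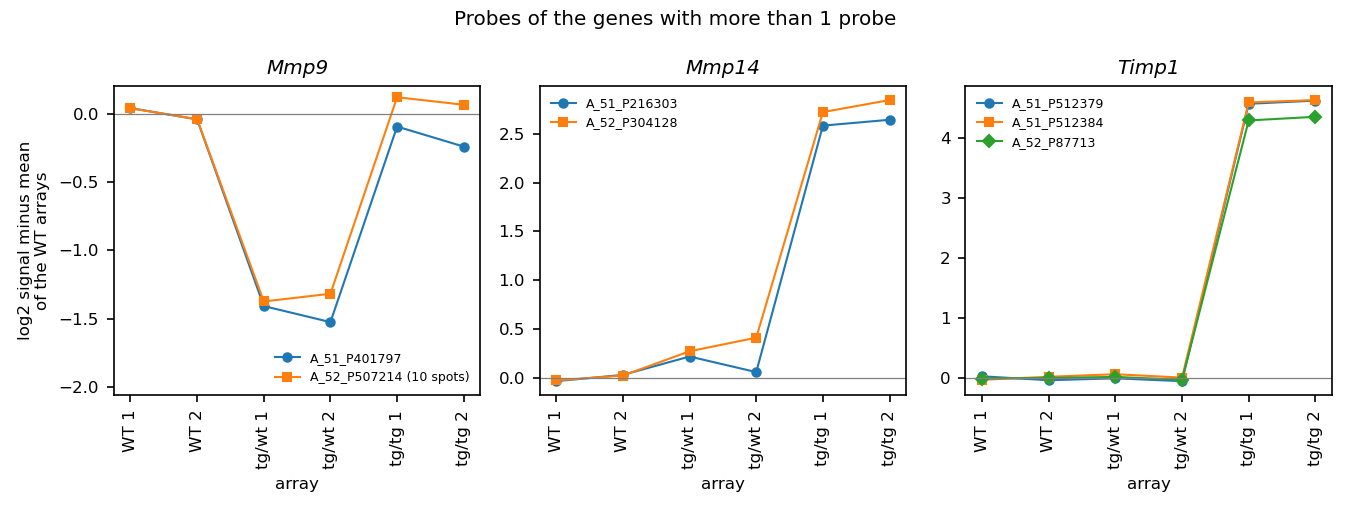
Log2 signal minus the mean of the WT arrays (y axis) on the 6 arrays (x axis) for each probe of Mmp9, Mmp14 and Timp1. The 3 Timp1 probes run together and rise in tg/tg, both Mmp9 probes drop in tg/wt, and the Mmp14 probes part on the tg/wt 2 array.

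Of 17 further family genes listed (other MMPs and Timp4), 15 had a probe and 10 were tested. In tg/tg against WT 4 rose and 4 fell, with a median of 0.10, and 8 of 10 called is near the 74.7% of all genes. Mmp10 and Mmp25 entered only through tg/tg: with the filter of all 6 arrays 2 of 6 rose and 3 fell. Besides Mmp10, the neutrophil and monocyte membrane enzyme gene Mmp25 (a fitted 4.72-fold, from WT signals not well above background), Mmp19 (3.37-fold) and Mmp11 (1.20-fold) were higher. Timp4 fell 2.54-fold, in the direction of Timp2 and Timp3. Mmp15, a membrane-type MMP gene, fell 2.32-fold, opposite to Mmp14. Mmp23 fell 1.24-fold, and Mmp28 was called lower from a signal that was above background on 1 of 2 WT arrays. Mmp17 (log2 difference -0.06) and Mmp24 (0.46) did not pass the test. In tg/wt limma called 0 of the 10, with 1 lower at an unadjusted p under 0.05; 1 was called higher without WT 1 and also without tg/wt 1, and 1 lower without tg/tg 1 and also without tg/tg 2.

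The counts of the next 4 lists stand beside 33.8% of all genes called higher and 40.8% lower, 74.7% in all. A2m, Adamts4 and Fosl1 passed the filter only through tg/tg, and Cpb2 only through WT. Their calls were therefore bound to follow and add nothing to the counts or medians. Among 18 tested genes of MMP activation and of inhibitors outside the TIMP family, 12 rose and 2 fell in tg/tg (median 0.99). The broad protease inhibitor gene A2m was at least 17.6-fold higher, Lcn2, whose product binds MMP9, 30.0-fold, the neutrophil protease gene Ctsg 10.3-fold and the urokinase gene Plau 6.60-fold. Reck, a membrane-bound MMP inhibitor, fell 4.46-fold, and Cpb2 fell a fitted 2.44-fold, to a signal not well above background. The count of falls moved when tg/tg 1 was left out. Of 18 ADAM and ADAMTS protease genes 9 rose and 8 fell (median 0.19). Adamts4 (a fitted 13.7-fold, from WT signals not well above background), Adam8 (4.72-fold), Adamts7 (3.76-fold) and Adam17 (2.46-fold), the sheddase of TNF, rose. Adamts8 (9.11-fold), Adam33 (3.39-fold), Adamts5 (2.28-fold) and Adam28 (2.08-fold) fell. Of 19 genes of matrix proteins that MMPs cut, 11 rose and 6 fell (median 0.47): Spp1 (3.17 on the log2 scale), Tnc (4.54-fold), Fn1 (2.69-fold) and the elastin gene Eln (2.63-fold) were higher, and Lum (2.64-fold), Lama2 (2.09-fold), Lama4 (1.47-fold) and Lamb1 (1.46-fold) lower. Of 19 genes of cytokines and transcription factors known to induce MMP genes, 13 rose and 3 fell (median 0.80). Ifng (95.1-fold), Tnf (48.0-fold), Il6 (45.8-fold) and Il1a (17.0-fold, from a signal above background on 1 of 2 WT arrays) were higher, while Jun (1.82-fold), Jund (1.14-fold) and Ets2 (1.40-fold) were lower. On WT 2 the level of Il6, -6.17, was the lowest that counted as well above background, so the size of its rise is not settled. The AP-1 genes of this list moved both ways: besides the falls of Jun and Jund, Junb (2.23-fold), Fos (1.62-fold), Fosb (1.38-fold) and Fosl1 (at least 6.36-fold) rose, and Fosl2 (0.28 on the log2 scale, adjusted p = 0.110) did not pass the test. These last 5 were named after their values were seen.

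In tg/wt against WT, where 13.4% of all genes were called higher and 14.5% lower, most counts of these lists moved when an array was left out. Activation and inhibitor genes had 1 call higher, Plg (a fitted 4.11-fold), and 5 lower, including Cpb2 (a fitted 2.21-fold) and Thbs1 (1.40-fold). For Plg and Cpb2 the lower group was not well above background. Plg passed the filter only with the tg/wt arrays and Cpb2 only through WT, so neither call adds to the counts. The other Plg probe had 0 arrays well above background. With no filter on dim probes, the filter of all 6 arrays or the replicate number as a block, 0 were higher. Quantile normalization gave 2 higher and the intensity trend in the prior 3. Without WT 1, WT 2 or tg/wt 2 the lower calls were 1, 2 and 2, and the higher call was lost without WT 1 or WT 2. ADAM and ADAMTS genes had 2 higher, Adam19 (1.30-fold) and Adamts10 (1.29-fold), and 6 lower, including Adam8 (1.64-fold) and Adamts15 (1.48-fold). Without WT 1, 0 were higher and 3 lower; without WT 2, 1 was higher; without tg/wt 1, 1 was higher, and without tg/wt 2, 0 (limma in each case). Matrix genes had 10 higher, including Col3a1 (1.49-fold) and Col4a2 (1.36-fold), and 1 lower, Spp1 (1.60-fold). The higher count was 3 without WT 1, 4 without WT 2 and 3 without tg/wt 2, and 2 were lower without WT 2. Of the inducers 6 were higher, with Ifng at 6.05-fold and Tnf at 2.58-fold, and 4 lower, with Il1b at 1.96-fold and Fos at 1.91-fold; without tg/wt 1 or tg/wt 2, 3 were higher.

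The genes whose profiles over the 6 arrays were closest to those of 4 members were found by Euclidean distance after subtraction of each gene's WT mean, among 12200 genes well above background on both tg/tg arrays. Closest to Mmp12 were Il6 (distance 0.746), Chl1 (0.847) and Clec4e (0.994), which changed by 5.52, 6.27 and 5.79 in tg/tg and by -0.45, -0.34 and -0.10 in tg/wt. Neither Mmp12 nor Il6 was well above background on a tg/wt array, and Mmp12 was so on 1 WT array alone. The distances to Mmp12 and the tg/wt change of Il6 therefore rest partly on such signals. Closest to Timp1 were Fst (0.187), the gene of the activin inhibitor follistatin, Ms4a6d (0.300) and Sprr1a (0.328), with changes in tg/tg of 4.37, 4.53 and 4.24. Closest to Mmp14 were Slc16a6 (0.170), Naip2 (0.249) and Ass1 (0.252), all 2.47 to 2.56 higher in tg/tg. Closest to Timp3 were Rpgr (0.0625), Nek7 (0.0894) and Syn2 (0.0928), which lay -0.66, -0.68 and -0.63 from WT in tg/tg. Distances grow with the size of the change, so they are not comparable between the 4 members.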

How the data were processed

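Per the file headers, the deposited intensity files came from Agilent Feature Extraction 9.5.3.1, while the submitters' processing notes name version 9.1. The processed intensity was background-subtracted within the array by the authors' software and not scaled between arrays; the deposited series values matched the background-subtracted intensity. Outlier and control spots were left out, spots of a probe averaged, log2 taken and each array's 75th percentile subtracted. Of 41174 probes 22951 were matched by accession to RefSeq symbols; probes well above background on at least 2 arrays entered, and the probe with the highest mean stood for its gene. All arrays entered a model of 3 group means (limma 3.58.1, R 4.3.3; 3 residual degrees of freedom, prior 1.77), with Benjamini-Hochberg adjustment and a threshold of 0.05; no covariate was used. Simulated data for tg/tg against WT, with 200 of 12970 genes changed, gave 86% recovery of genes changed by a log2 of 1 and 98% by 2. The real comparison called 74.7% of genes, so these rates need not hold for it. Lists, members and named genes (per list up to 4 rises and 4 falls in tg/tg, 2 and 2 in tg/wt, called and well above background on both arrays of the higher group, and 3 nearest profiles for 4 members) were chosen with earlier results of these data known. The neutrophil list holds Mmp8, which was taken out where the other markers are described. Precision is limited by how few arrays there are. The mean-signal column planned for normexp was not in the files used here, and the median signal took its place.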

Additional observations from a re-analysis of the deposited data

Results flagged for a closer look

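Mmp8, Mmp3 and Mmp12 were below WT in tg/wt and above WT in tg/tg, with a call in each comparison, and the test of tg/tg against tg/wt gave log2 differences of 3.05 for Mmp8 and 0.87 for Mmp3. For Mmp12 the fitted 6.65 is not a measured size: the bound is 6.29, and the normexp correction gave 4.09. All of these comparisons share the WT or tg/wt arrays, and slide and genotype cannot be told apart in tg/wt. Mmp12 was not well above background on either tg/wt array. In tg/wt the call of Mmp8 held in all 18 alternative settings. That of Mmp3 was lost in 4 of 18, and that of Mmp12 in 3 of 17.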

How the results depend on the processing

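Over up to 18 alternatives, no called difference of the 10 genes changed direction, and in tg/tg against WT every call of the 9 called genes held wherever the gene was tested; Mmp12 was not tested with the filter of all 6 arrays, which left 6 of the 7 rises. Of the counts of members, the normexp correction left 1 higher in tg/wt, leaving out single arrays gave 2 to 4 lower in tg/wt and 1 to 3 lower in the comparison of steps, and the series values gave 1 there. Genes called in all in tg/wt against WT, 3620 with the chosen settings, were 1446 with the series values, 2408 with no filter on dim probes and 1398 to 3472 with single arrays left out; with the series values 59.5% of these calls were higher, against 47.9%. The series values also ended the call of Mmp3 in tg/wt (adjusted p = 0.120), and the cause was not tested. With the intensity trend in the prior Mmp2 was called between tg/tg and tg/wt (adjusted p = 0.0292). With the replicate number as a block, which the labels do not say marks a shared origin and whose same-numbered arrays deviated together at r of -0.05 to 0.13, 1 member was lower in the comparison of steps, Mmp9 was called lower in tg/tg (adjusted p = 0.0225), and 2617 genes were called in tg/wt. Slide as a block could not be fitted, since it coincides with tg/wt; the fit within slide 1, of WT and tg/tg alone, kept 7 members higher and 2 lower. Genes near background, such as Mmp12 outside tg/tg, are limited by their signal.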
